A study of Homo sapiens with 39 samples.

Results

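Expression of 7 cytochrome P450 genes of the CYP2 family (CYP2C8, CYP2C18, CYP2C19, CYP2D6, CYP2E1, CYP2A6 and CYP2J2) was examined in human HepaRG cells exposed to chemicals that do or do not damage DNA. The members were the rows of the expression table whose gene symbol equals one of these names, which gave 7 of 20802 gene targets. HepaRG is a human hepatic cell line used in toxicology because its hepatocyte-like cells keep P450 activity, and its cultures also hold biliary-like cells. The 39 libraries held 10 chemicals at 3 increasing concentrations (low, mid and high) and 9 vehicle controls, with 1 library for each condition. The 5 DNA damage-inducing (DDI) chemicals were aflatoxin B1 (AFB1; 0.25, 1 and 2.5 μM), cisplatin (CISP; 2, 5 and 10 μM), etoposide (ETP; 0.5, 2.5 and 10 μM), methyl methanesulfonate (MMS; 50, 100 and 200 μM) and 2-nitrofluorene (2NF; 10, 50 and 250 μM). The 5 non-DDI chemicals were ampicillin trihydrate (AMP; 1, 3 and 10 mM), sodium ascorbate (ASC; 1, 2 and 10 mM), 2-deoxy-D-glucose (2DG; 1.25, 5 and 10 mM), sodium chloride (NaCl; 1, 2.5 and 10 mM) and colchicine (COL; 0.05, 0.1 and 0.3 μM). DMSO was the vehicle for AFB1, CISP, ETP, 2NF and COL, water for MMS, and culture medium for AMP, 2DG, ASC and NaCl, and AFB1 and COL shared 1 DMSO control. All cultures, controls included, were dosed daily for 3 days and harvested 7 h after the last dose, and the RNA of 3 cultures was pooled into each library, so that a single condition has no replicate check.

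Cytochromes P450 are haem enzymes of the endoplasmic reticulum that oxidise drugs, toxicants and endogenous lipids with electrons delivered by P450 reductase. In the liver, the CYP2 genes are transcribed mainly in hepatocytes under factors such as HNF4A, the C/EBP proteins and the nuclear receptors PXR (NR1I2) and CAR (NR1I3), and they decline when hepatocytes lose their differentiated state. CYP2C8 oxidises paclitaxel and arachidonic acid, CYP2C19 omeprazole and clopidogrel, CYP2D6 codeine and many antidepressants, CYP2E1 ethanol and paracetamol, and CYP2A6 nicotine and coumarin. CYP2J2 is an arachidonic acid epoxygenase with a broad tissue distribution, and CYP2C18 is a close relative of CYP2C19.

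The promoters of the members that moved together are shown first, with that of CYP2J2, which did not pass any test below, for contrast. RefSeq promoters (GRCh38.p14) were at hand for 5 of the 7 members, and CYP2C18 and CYP2D6 had no entry in the table used. Each run is the 150 bases before the transcription start on the coding strand, 5′ to 3′. The capitals mark matches, on either strand, to CAAAGTNCA (HNF4), TTGCNNAA (C/EBP), TGTTTNC (FOXA), TTANGTAA (PAR bZIP factors such as HLF and TEF) or TATAAA (the TATA box). The printed windows were chr10:95069498-95069647 (minus strand) for CYP2C8, chr10:94762531-94762680 (plus) for CYP2C19, chr10:133527213-133527362 (plus) for CYP2E1, chr19:40850448-40850597 (minus) for CYP2A6 and chr1:59926774-59926923 (minus) for CYP2J2.
CYP2C8: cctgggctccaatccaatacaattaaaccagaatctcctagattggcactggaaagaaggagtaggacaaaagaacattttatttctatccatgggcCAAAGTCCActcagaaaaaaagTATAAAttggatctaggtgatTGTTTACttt
CYP2C19: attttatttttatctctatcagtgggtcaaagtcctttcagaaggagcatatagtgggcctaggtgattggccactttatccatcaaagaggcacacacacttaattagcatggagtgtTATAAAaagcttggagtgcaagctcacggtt
CYP2E1: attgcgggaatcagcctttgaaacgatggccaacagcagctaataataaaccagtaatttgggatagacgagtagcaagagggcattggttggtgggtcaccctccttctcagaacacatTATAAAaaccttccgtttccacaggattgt
CYP2A6: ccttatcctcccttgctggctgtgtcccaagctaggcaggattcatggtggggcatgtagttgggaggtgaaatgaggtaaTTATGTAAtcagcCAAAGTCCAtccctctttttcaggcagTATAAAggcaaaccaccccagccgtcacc
CYP2J2: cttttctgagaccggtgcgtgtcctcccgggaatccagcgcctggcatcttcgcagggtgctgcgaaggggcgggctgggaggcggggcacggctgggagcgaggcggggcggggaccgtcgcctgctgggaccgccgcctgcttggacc

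The TATA letters were present in CYP2C8, CYP2C19, CYP2E1 and CYP2A6, starting between 29 and 31 bases before the start, and occurred in 7.05% of the 27305 promoter windows of this length. The HNF4 letters began 53 bases before the start in CYP2C8 and 56 bases before it in CYP2A6, and 0.571% of all windows held them. CYP2A6 also held the PAR bZIP letters (1.12% of windows), and CYP2C8 the FOXA letters (9.29%). The CYP2J2 window held none of these motifs. The C/EBP letters (5.08% of windows) matched in none of the 5 windows. A match describes the sequence only.

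Libraries held 8504699 to 16425527 counts. MMS at 100 and 200 μM had the lowest median correlation with the other libraries (Pearson's r of 0.936 and 0.944 across targets), and the MMS calls, the list counts in MMS, the tests of slopes and the class comparison were repeated without them. The hepatocyte label was checked with 10 markers: their summed level was 29788 to 53125 RPM (each count scaled to the library's total, per 1000000 reads) in the 9 controls, and ALB, which encodes albumin, ranged from 2299 to 36331 RPM over all libraries. Of the biliary markers, KRT19 (199 to 1314 RPM) was present, while KRT7 was at 0 to 0.338 RPM. Each gene was read by 1 amplicon, so levels were compared between libraries and not between genes.

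Across the 39 libraries, CYP2E1 varied from 1.23 RPM (MMS 100 μM) to 147 RPM (a DMSO control), with a median of 25.7. CYP2C8 ranged from 2.64 to 79.4 RPM (median 39.1) and CYP2C19 from 4.86 to 60.1 RPM (median 23.9). CYP2A6 ranged from 0.655 to 38.5 RPM (median 11.3). The lowest libraries of these 4 genes were from MMS or AFB1. CYP2C18 ranged from 3.12 to 17.1 RPM (median 8.09) and CYP2J2 only from 8.81 to 20.5 RPM (median 12.7). CYP2D6 was close to the detection limit, at 0.102 to 2.29 RPM, which is 1 to 26 counts, with 10 counts or more in 21 of the libraries. As there was 1 library per condition, each log2 ratio to the matched control, on the log2(RPM + 1) scale, was set beside a control limit, the largest log2 difference between any 2 controls of that vehicle (for water, the larger of the DMSO and medium limits). Of the 210 ratios of the members, 55 were below the limit and 19 above it, beside 9.96% and 10.3% of the ratios of all targets with a mean count of at least 10. CYP2E1 and CYP2A6 were below it in 10 of 30 treated libraries each, CYP2C8 and CYP2C19 in 8 each, and CYP2C18 and CYP2D6 in 7 each, the latter on few counts and with a DMSO limit of 0.18. CYP2J2, whose medium controls differed by 0.09 at most, was below it in 5 libraries and above it in 8.

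AFB1, a mycotoxin that P450 enzymes turn into a DNA-reactive epoxide, was accompanied by a stepwise fall of 4 members. CYP2E1 was at 76.3 RPM in the DMSO control and at 42.1, 19.5 and 2.81 RPM at the low, mid and high concentrations. CYP2A6 went from 22.9 to 11.3, 6.18 and 0.655 RPM, the last from 7 counts (95% Wilson interval 0.317 to 1.35 RPM). CYP2C19 went from 60.1 to 36.0, 19.1 and 4.86 RPM. All 3 genes were lower at each higher concentration. For CYP2C19 this control was the highest of the 4 DMSO controls, the others being at 28.0, 32.4 and 33.6 RPM, so its fold and slope rest on a high control. CYP2C8 (63.5, then 59.2, 30.4 and 7.29 RPM) left its control level from the mid concentration on. In RPM, with no pseudocount, the control level at 2.5 μM was 27.2-fold that of the treated library for CYP2E1, 35.0-fold for CYP2A6, 12.4-fold for CYP2C19 and 8.71-fold for CYP2C8. A trend over the control and the 3 concentrations (step 0 to 3) was tested by the quasi-likelihood test of edgeR in 1 fit of all libraries, with p adjusted by Benjamini-Hochberg over 13812 genes. The slope was -1.39 ± 0.23 (log2 per step ± SE, adjusted p = 0.000503) for CYP2E1 and -1.34 ± 0.23 (adjusted p = 0.000547) for CYP2A6. CYP2C19 had a slope of -1.12 ± 0.18 (adjusted p = 0.000437) and CYP2C8 of -1.02 ± 0.24 (adjusted p = 0.00857). These 4 of 7 members fell, against 3.21% of all genes tested. The call depended on the highest concentration, and without the 2.5 μM library 0 members were called. The slopes were then -1.01 for CYP2E1, -0.98 for CYP2A6, -0.83 for CYP2C19 and -0.63 for CYP2C8. The share of all genes falling in that fit is not given here, so the loss may not be particular to the members.

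CYP2C18 was at 10.2 RPM in the same control and at 8.21, 6.65 and 3.83 RPM in the AFB1 libraries. Its slope of -0.46 ± 0.15 missed the threshold in edgeR (adjusted p = 0.0647) and passed it in DESeq2 (adjusted p = 0.0266). CYP2J2 was at 12.7 RPM in the control and at 12.8, 14.2 and 12.2 RPM, with a slope of -0.02 ± 0.11. CYP2D6, at 0.281 to 1.14 RPM in the AFB1 libraries, could not be resolved at this depth.

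COL, a microtubule poison that does not bind DNA, was read against that same DMSO control, so its values are set side by side with those of AFB1 and are not independent of them. CYP2E1 was at 35.8, 25.7 and 8.24 RPM at 0.05, 0.1 and 0.3 μM. CYP2A6 was at 11.5, 9.14 and 2.93 RPM, and CYP2C8 at 45.3, 35.3 and 11.4 RPM. CYP2C19 was at 27.2, 29.4 and 8.68 RPM. All 12 values were below the control. That control was high for CYP2C19, at 60.1 RPM beside 28.0, 32.4 and 33.6 RPM in the other DMSO controls. The CYP2C19 value at 0.1 μM (29.4 RPM) was within the range of those other controls, and that at 0.05 μM (27.2 RPM) was just below it. The slopes were -1.12 ± 0.22 for CYP2E1 (adjusted p = 0.00078), -0.98 ± 0.21 for CYP2A6 (adjusted p = 0.00222), -0.92 ± 0.23 for CYP2C8 (adjusted p = 0.00703) and -0.89 ± 0.17 for CYP2C19 (adjusted p = 0.000763, edgeR). These 4 of 7 members fell, against 7.21% of all genes. Without the 0.3 μM library the slopes were -0.99 for CYP2E1, -0.81 for CYP2A6, -0.70 for CYP2C8 and -0.68 for CYP2C19, and 0 members were called. As for AFB1, the share of all genes falling in that fit is not given here. CYP2C18 (8.09, 10.4 and 6.29 RPM) and CYP2J2 (11.2, 15.1 and 11.2 RPM) showed no called slope. The difference between the AFB1 and COL slopes was tested in the same fit, an addition made after the values were seen. It was called for 0 of 7 members (edgeR, with 0 at an unadjusted p under 0.05), against 6.26% of all genes. The difference was -0.27 ± 0.20 log2 per step for CYP2E1, -0.36 ± 0.21 for CYP2A6, -0.23 ± 0.16 for CYP2C19 and -0.10 ± 0.20 for CYP2C8, so differences of the order of these standard errors were not resolved.

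2NF is a nitroaromatic compound that forms DNA adducts after metabolism. CYP2C8, CYP2C19, CYP2E1 and CYP2A6 fell most between its low and mid concentrations. CYP2E1 was already below its control limit at 10 μM (log2 ratio -1.26, limit 0.94), and CYP2A6 fell further from 50 to 250 μM. CYP2C8 was at 79.4 RPM in its DMSO control and at 62.3, 7.05 and 5.56 RPM at 10, 50 and 250 μM. CYP2E1 went from 147 to 61.0, 5.80 and 15.6 RPM, so that the mid library was lower than the high one. CYP2A6 went from 34.3 to 27.6, 8.21 and 3.16 RPM. CYP2C19 was at 32.4 RPM in the control and at 41.2, 15.9 and 11.1 RPM. For CYP2C8, CYP2A6 and CYP2E1 this control was the highest of the 4 DMSO controls. The others were at 39.1 to 63.5, 21.2 to 24.8 and 76.3 to 100.2 RPM, so the folds and slopes of these genes rest on a high control. The control level was 14.3-fold that at 250 μM for CYP2C8, 10.9-fold for CYP2A6, 9.42-fold for CYP2E1 and 2.91-fold for CYP2C19. The slopes were -1.50 ± 0.26 (adjusted p = 0.00028), -1.21 ± 0.23 (adjusted p = 0.00067), -1.249 ± 0.21 (adjusted p = 0.000186) and -0.64 ± 0.19 (adjusted p = 0.0307, edgeR) in the same order. These 4 of 7 members fell, against 4.45% of all genes. Without the DMSO control of 2NF, or without the 250 μM library, 2 members were called in each case. The shares of all genes falling in these 2 fits are not given here. The CYP2C19 call was lost without any 1 of the 4 libraries (adjusted p from 0.0504 to 0.411). CYP2C18 was at 7.96 RPM in the control and at 9.55, 3.12 and 4.70 RPM, with a slope of -0.41 ± 0.16 (adjusted p = 0.133). CYP2J2, at 14.5 RPM in the control and 20.5, 12.7 and 16.9 RPM in the treated libraries, had a slope of -0.03 ± 0.11.

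MMS, a direct-acting alkylating agent that needs no P450 activation, was accompanied by low values of 4 members at the mid and high concentrations. CYP2C8 was at 27.0 RPM in the water control and at 21.5, 2.64 and 3.27 RPM at 50, 100 and 200 μM. CYP2E1 went from 18.6 to 7.66, 1.23 and 2.60 RPM. CYP2C19 went from 21.4 to 16.5, 5.54 and 5.98 RPM, and CYP2A6 from 7.30 to 5.44, 1.76 and 2.14 RPM. For all 4 genes the 200 μM library was above the 100 μM library, 2.60 against 1.23 RPM for CYP2E1. The Wilson intervals at 100 and 200 μM overlapped for all 4 genes. For CYP2E1 they were 0.734 to 2.07 RPM (14 counts) and 1.73 to 3.89 RPM (23 counts). The counts were 30 and 29 for CYP2C8, 63 and 53 for CYP2C19 and 20 and 19 for CYP2A6. A rise from 100 to 200 μM was therefore not resolved. At 100 μM the control level was 15.1-fold that of the treated library for CYP2E1 and 10.2-fold for CYP2C8. CYP2C8 (slope -1.26 ± 0.27, adjusted p = 0.00232), CYP2E1 (-1.23 ± 0.27, adjusted p = 0.00266), CYP2C19 (-0.75 ± 0.19, adjusted p = 0.00788) and CYP2A6 (-0.75 ± 0.25, adjusted p = 0.0418, edgeR) fell, 4 of 7 members against 10.4% of all genes. Without the 100 μM or the 200 μM library, which stood apart from the rest, CYP2C8, CYP2E1 and CYP2C19 passed in each case (adjusted p up to 0.0357) and CYP2A6 did not (adjusted p = 0.134 and 0.0957). The CYP2A6 call was lost without any 1 of the 4 libraries (edgeR, adjusted p from 0.0549 to 0.424). Without the single water control 0 members were called, with slopes of -1.57 for CYP2C8 and -0.96 for CYP2E1. The share of all genes falling without that control is not given here. CYP2C18 (9.04 RPM in the control, then 10.1, 4.57 and 7.33 RPM) and CYP2J2 (11.8, then 10.9, 12.2 and 11.7 RPM) were not called.

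**Figure D1:**
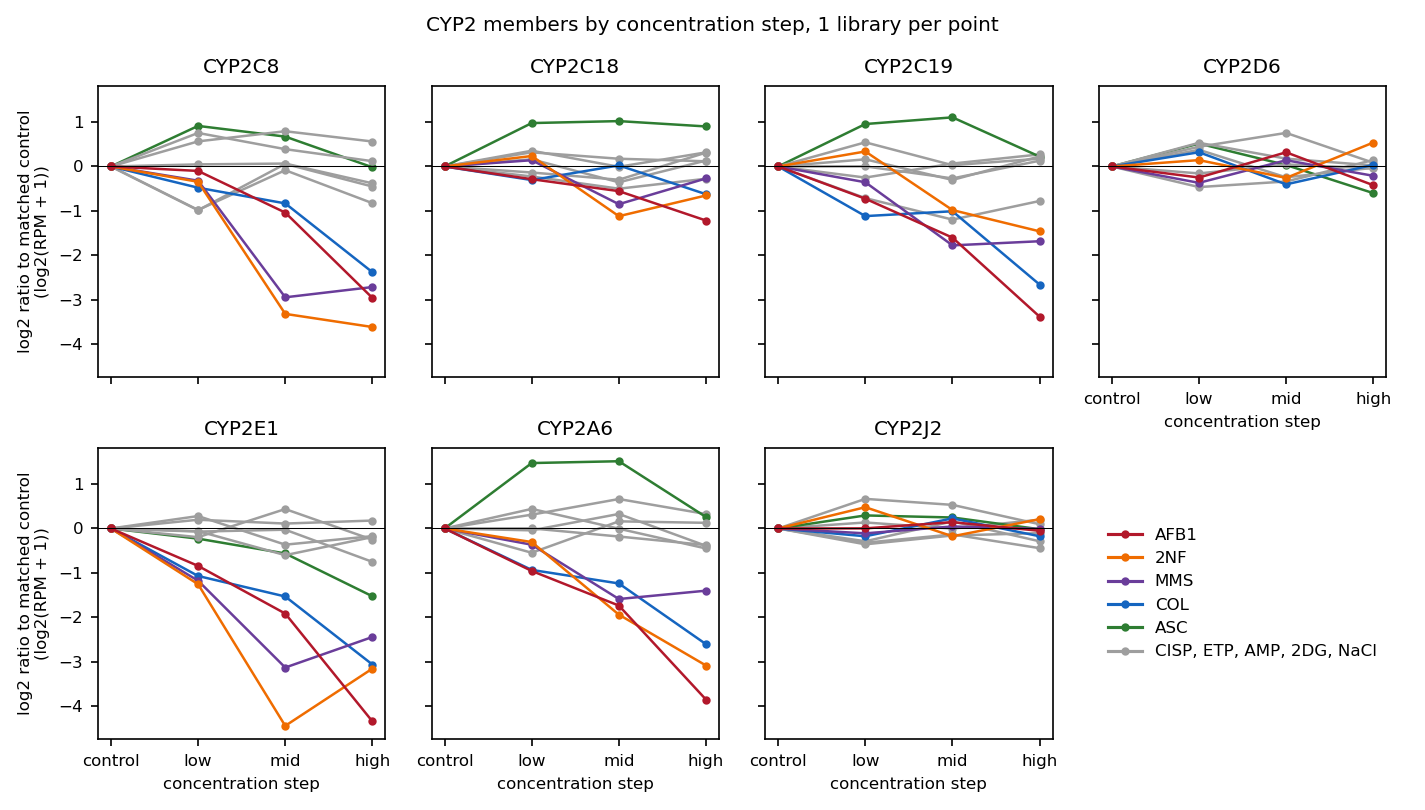
Each panel plots 1 gene, with the concentration step on the horizontal axis and the log2 ratio to the matched control, from log2(RPM + 1), on the vertical axis; each point is 1 library. CYP2C8, CYP2C19, CYP2E1 and CYP2A6 descend in AFB1, 2NF, MMS and COL, CYP2E1 as far as -4.44 in 2NF at 50 μM. CYP2J2 lies between -0.44 and 0.67, and the narrow spread of CYP2D6 follows in part from the pseudocount of 1, since its level was at most 2.29 RPM.

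With CISP, which crosslinks DNA, and ETP, a topoisomerase II poison, no member had a called trend. CYP2E1 was at 79.4 RPM in the CISP control and at 75.6, 77.9 and 46.8 RPM in the treated libraries. For ETP it was at 100.2 RPM in the control and at 96.1, 65.7 and 87.5 RPM. CYP2C19 was at 33.6 RPM in the CISP control and at 20.1, 14.1 and 19.2 RPM in the treated libraries, and CYP2C8 at 45.5 RPM and at 22.5, 47.4 and 33.0 RPM. At 5 μM CISP, CYP2C19 was below its control limit (log2 ratio -1.20, limit 1.08). At 2 and 5 μM, CYP2J2 was above its limit (0.67 and 0.53, limit 0.44) and CYP2D6, on 4 counts each, below its own. At 10 μM 0 members were beyond the limit. The CISP slope of CYP2C19 was -0.30 ± 0.17 (edgeR, adjusted p = 0.778). In edgeR 0 of 7 members were called in CISP or in ETP, with 0 at an unadjusted p under 0.05 and 0 called by DESeq2, against 0% of genes falling in each.

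AMP, 2DG and NaCl gave 0 of 7 called members each, with 0 at an unadjusted p under 0.05 and 0 by DESeq2, against 0%, 0% and 0.00724% of genes falling. CYP2E1 stayed between 20.3 and 33.3 RPM in AMP (control 24.3), between 11.1 and 17.8 RPM in 2DG (control 14.5) and between 48.9 and 52.0 RPM in NaCl (control 45.2). These ranges straddled the control in AMP and 2DG. CYP2C8 was at 34.2 RPM in the 2DG control and at 16.8, 32.2 and 18.8 RPM in the treated libraries, the low concentration being below its control limit. In AMP it was at 36.4 RPM in the control and at 54.4, 63.9 and 54.3 RPM, above the control at each concentration and within the limit.

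ASC differed from the other non-DDI chemicals in the shape of its values. CYP2A6 was at 12.8 RPM in the medium control and at 37.4, 38.5 and 15.5 RPM at 1, 2 and 10 mM. CYP2C18 was at 7.92 RPM in the control and at 16.6, 17.1 and 15.7 RPM. CYP2C19 went from 20.3 to 40.4, 44.9 and 23.9 RPM, and CYP2C8 from 38.6 to 73.6, 62.1 and 38.1 RPM. The treated libraries at 1 and 2 mM were thus above the control for these 4 genes. CYP2A6 and CYP2C18 exceeded the control limit at both concentrations, CYP2C8 (limit 0.86) only at 1 mM and CYP2C19 (limit 1.08) only at 2 mM, and CYP2C18 alone of the 4 did so at 10 mM. CYP2E1 went the other way, from 26.5 to 22.4, 17.6 and 8.54 RPM. The control limit for medium was 1.37 for CYP2A6, 0.39 for CYP2C18 and 1.57 for CYP2E1. At 2 mM the log2 ratio to the control was 1.51 for CYP2A6 and 1.02 for CYP2C18, and at 10 mM it was -1.53 for CYP2E1, within its limit. The summed level of the 10 hepatocyte markers was 29788 RPM in this control, the lowest of the 9 controls, and 41982, 57009 and 46539 RPM in the ASC libraries, with a median log2 ratio of 0.21, 0.28 and -0.01, and their part in the members' values was not tested. A straight trend over the steps called 0 of 7 members (edgeR, 1 at an unadjusted p under 0.05, which was CYP2E1 with a slope of -0.49 ± 0.23, and 0 by DESeq2), against 0.0434% of genes falling.

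Whether the chemicals differed in slope was tested over all 10 at once and over the 5 DDI chemicals, both added after the values were seen. Over the 10 chemicals the slopes differed for CYP2E1 (adjusted p = 0.00249), CYP2A6 (adjusted p = 0.00315), CYP2C8 (adjusted p = 0.00383) and CYP2C19 (adjusted p = 0.00399, edgeR), 4 of 7 members against 11% of all genes. Over the DDI chemicals the same 4 members passed (adjusted p from 0.0102 to 0.0435), against 4.09% of genes. CYP2C18 did not pass either test (adjusted p = 0.172 and 0.47). Without the MMS libraries at 100 and 200 μM the 4 members passed over the 10 chemicals (adjusted p up to 0.0125), and CYP2C19 did not pass over the DDI chemicals (adjusted p = 0.104).

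The study's own grouping set DDI against non-DDI chemicals, with the chemicals as replicates (n = 5 and 5). AMP, ASC, 2DG and NaCl, all non-DDI, had medium as vehicle and no DDI chemical did, so class and vehicle are largely confounded. AFB1 and COL, of different classes, shared a control, so their ratios are not independent. At the high concentration the CYP2E1 log2 ratio was -2.18 ± 1.71 (SD) in the DDI class and -0.97 ± 1.34 in the non-DDI class. For CYP2C8 it was -1.92 ± 1.65 and -0.61 ± 1.11, and for CYP2A6 -1.82 ± 1.58 and -0.47 ± 1.23. The ranges overlapped: within the DDI class the CYP2E1 ratio was -0.75 in CISP and -0.19 in ETP, and within the non-DDI class it was -3.06 in COL and -1.53 in ASC. By edgeR 0 of 7 members were called at the high (0.0515% of genes called), mid (0%) or low (0%) concentration. At an unadjusted p under 0.05 there were 0 members at high, 2 at mid (CYP2C19 and CYP2A6) and 1 at low (CYP2D6), and DESeq2 called 0 at each. Without MMS, 0 members were called at each concentration, and the share of all genes called then is not given here. The smallest p of an exact permutation of the 10 chemicals, two-sided, was 0.00794, which is the smallest the design allows, for CYP2D6 at the low concentration. Its log2 ratio was -0.22 ± 0.23 in the DDI and 0.44 ± 0.09 in the non-DDI libraries with no overlap, and it was the smallest of 21 such tests and rested on few counts. Its adjusted p in edgeR was 0.999.

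The vehicles themselves differed for some of the members. CYP2E1 was at 76.3, 79.4, 100.2 and 147 RPM in the 4 DMSO controls and at 14.5, 24.3, 26.5 and 45.2 RPM in the 4 medium controls, with no overlap. CYP2A6 was at 21.2, 22.9, 24.8 and 34.3 RPM in DMSO and at 6.00, 6.40, 12.8 and 17.0 RPM in medium, again with no overlap. The share of all genes without overlap between these controls was not counted. The water control had 18.6 RPM of CYP2E1 and 7.30 RPM of CYP2A6, within the range of the medium controls. The log2 difference, DMSO minus medium, was 1.89 ± 0.31 (SE, adjusted p = 0.00793) for CYP2E1 and 1.30 ± 0.31 (adjusted p = 0.0366) for CYP2A6 by edgeR. The exact two-sided permutation p, not adjusted over the 7 members so tested, was 0.0286 for each, the smallest possible for 4 against 4. By edgeR these 2 of the 6 members tested rose in DMSO, against 1.66% of all genes. Only CYP2E1 was called without the DMSO control of CISP, 2NF or ETP or the medium control of NaCl or 2DG. CYP2C19 was at 28.0 to 60.1 RPM in DMSO and 15.2 to 33.3 RPM in medium (log2 difference 0.78 ± 0.28, adjusted p = 0.14). CYP2C8, CYP2C18 and CYP2J2 overlapped between the vehicles, and CYP2D6 was too low to enter the edgeR test. Cell type markers also differed between the vehicles: of 10 hepatocyte markers 2 were higher in DMSO (median log2 difference 0.36), and of 5 cholangiocyte markers 2 were lower and 1 higher (median -0.92). Their part in the CYP2E1 and CYP2A6 difference was not tested. The vehicle cannot be told apart from the chemicals that share it, so each chemical was read against its own control.

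Other genes of the pathway moved in the same libraries. Over all genes tested, 3.21% fell in AFB1, 4.45% in 2NF, 7.21% in COL and 10.4% in MMS, and the counts of each list stand beside these shares. Of the 6 other CYP2 genes tested, 3 fell in each of AFB1, 2NF and COL and 0 in MMS. CYP2B6, which oxidises bupropion, had slopes of -1.48 in AFB1 and -1.08 in COL. CYP2S1, a target of the aryl hydrocarbon receptor, rose in 2NF (slope 0.73, adjusted p = 0.000584, edgeR), and was also the 1 gene of the list that rose in AFB1. Among 8 genes of electron supply and haem, POR, the P450 reductase, had slopes of -0.35 in AFB1, -0.28 in COL and -0.27 in MMS. CYB5A, a cytochrome b5, had slopes of -0.27, -0.32, -0.47 and -0.45 in AFB1, 2NF, COL and MMS. Falls were called for 2 of these 8 genes in AFB1, 1 in 2NF, 2 in COL and 3 in MMS (all genes, 3.21%, 4.45%, 7.21% and 10.4%), with HMOX1, the haem-degrading oxygenase, rising in 2NF (slope 0.62).

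Of the 16 transcription factors that act on CYP2 genes in liver, 5 fell in AFB1, 3 in 2NF, 9 in COL and 9 in MMS, and 0 rose (all genes, 3.21%, 4.45%, 7.21% and 10.4% falling). NR1I3 had slopes of -1.35 in AFB1, -1.32 in 2NF and -1.35 in COL. Its level was only 0.088 to 6.59 RPM over all libraries, so these slopes rest on few counts. HLF, a PAR bZIP factor, had slopes of -0.47 in AFB1, -0.52 in 2NF and -0.53 in MMS. The median slope of the list was -0.35 in AFB1, -0.33 in 2NF, -0.46 in COL and -0.43 in MMS, beside -1.02, -0.64, -0.89 and -0.75 for the 7 members and between -0.01 and 0.00 for all genes.

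Hepatocyte markers also fell in these chemicals. Their calls were 5 of 10 falling in AFB1, 5 in 2NF, 6 in COL and 8 in MMS (all genes, 3.21%, 4.45%, 7.21% and 10.4%), with 0 rising. Without the MMS library at 100 or at 200 μM, MMS falls were called for 7 and 8 of the markers, 5 and 5 of the factors, 1 and 2 of the redox and haem genes and 2 and 4 of the cholangiocyte markers, beside 7.85% and 8.08% of all genes. Without both libraries the MMS trend rests on the 50 μM library and the control, and edgeR called 0 genes of these lists, 0 members and 0% of all genes as falling. TTR, the transthyretin gene, had slopes of -0.65, -0.83, -0.55 and -0.83 in AFB1, 2NF, COL and MMS. The summed level of the 10 markers was 28367 RPM in AFB1 at 2.5 μM, 23058 RPM in COL at 0.3 μM, 16564 and 18059 RPM in 2NF at 50 and 250 μM, and 5119 and 9213 RPM in MMS at 100 and 200 μM, below all 9 controls. The sum was also below all controls in MMS at 50 μM (23658 RPM) and in CISP at 5 μM (29755 RPM, the lowest control being at 29788 RPM). It was so too in 2DG at 1.25 and 10 mM (24297 and 25792 RPM), and in CISP and 2DG no member was called. The sum is weighted towards ALB, the marker with the most reads. The median log2 ratio of the 10 markers to their own control was -0.48, -0.20, 0.09 and -0.03 in the same order. It was -1.36 in AFB1 at 2.5 μM and -1.28 in COL at 0.3 μM. In AFB1 at 2.5 μM the control level of the markers was a median of 2.57-fold that of the treated library (range over the markers 0.888 to 6.00), beside 8.71-fold for CYP2C8, 12.4-fold for CYP2C19, 27.2-fold for CYP2E1 and 35.0-fold for CYP2A6, all in RPM. The other members were at 2.67-fold (CYP2C18), 2.55-fold (CYP2D6, on 3 counts) and 1.04-fold (CYP2J2). The 4 members named first were picked by their falls in these data, so a larger fall than that of the markers is partly built in. In MMS at 100 μM the control level of the markers was a median of 4.87-fold (range 2.04 to 32.4), beside 3.86-fold for CYP2C19, 4.15-fold for CYP2A6, 10.2-fold for CYP2C8 and 15.1-fold for CYP2E1. The other members were at 1.98-fold (CYP2C18), 0.967-fold (CYP2J2) and 0.867-fold (CYP2D6). The top of the marker range came from AHSG, a marker at only 0.176 to 19.0 RPM over all libraries. The part of these markers in the members' values was not tested, and in bulk RNA fewer hepatocyte-like cells and less RNA per cell cannot be told apart. Of the 5 cholangiocyte markers tested, 0 fell in AFB1, 1 in COL, 2 in 2NF and 3 in MMS, and 1 (SPP1) rose in 2NF.

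Over the 39 libraries the 4 falling members, a group picked by its falls in these same libraries, varied together. Pearson's r of log2(RPM + 1) was 0.861 for CYP2C8 with CYP2C19 and 0.758 for CYP2E1 with CYP2A6, and it was 0.647 for CYP2C18 with CYP2C19. With CYP2J2, r was 0.195 for CYP2C8, 0.250 for CYP2C19, 0.402 for CYP2E1 and 0.447 for CYP2A6. The targets most like CYP2E1, among 10883 ranked, were APOC3 (r = 0.9504), AQP9 (0.948) and SERPIND1 (0.937), and the 2 most like CYP2C8 were ADH4 (0.952) and FABP1 (0.947). CYP2A6 was closest to ACSM2B (0.940), ACSM2A (0.933) and CYP8B1 (0.926), and the targets near the top for CYP2C19 included RGN (0.902) and CFHR2 (0.901). CYP2C18 was closest to CRP (0.845), FGA (0.815) and HAO2 (0.814). For CYP2J2 the highest values were 0.618 (LYRM7), 0.617 (FTL) and 0.609 (SLC46A1), and for CYP2D6 0.737 (POLE), 0.704 (IRF9) and 0.690 (ZNF785). These values describe libraries that share treatments, controls and chips. Reads of near-identical copies could be split between targets: CYP2A7, next to CYP2A6 on chromosome 19, had 0 to 22 counts, CYP2A13 0 to 2 counts and CYP2D7P1 8 to 40 counts, so the CYP2D6 and the lowest CYP2A6 values are uncertain.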

How the data were processed

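RNA of HepaRG cells was measured by targeted AmpliSeq sequencing in 39 libraries. The authors aligned the reads to hg19 amplicon targets with the Ion Torrent ampliSeqRNA plugin and deposited raw counts per target. They also deposited RPM values, which are counts scaled to the same total in each library. A recalculation of RPM from the counts differed by at most 0.000538. The 10 spike-in targets, with a count of 0 in all libraries, were left out. No column of per-sample values was left unmapped.

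Log2 ratios used log2(RPM + 1), with a pseudocount of 1, against the matched control, without a test. Counts were tested with edgeR 4.0.16 (TMM, filterByExpr, quasi-likelihood, R 4.3.3): a trend over concentration steps with the control set as a block (20 residual degrees of freedom), DDI against non-DDI chemicals at each step, and DMSO against medium controls. The threshold was an adjusted p of 0.05 (Benjamini-Hochberg over all genes tested). DESeq2 1.42.0, other scalings and filters, and leaving out libraries were the alternatives. Fits were tested on simulated data. The p-values of the trend measure the spread of single pooled libraries around straight lines, and the amplified reads carry no molecular identifiers, so counting intervals cover counting error only. All members were described. From each list the 3 genes with the smallest p per chemical were eligible to be named, as were the 3 targets most correlated with each member (mean count of at least 50). The members and lists were chosen with earlier results of these data known. Some genes that this rule covers are not reported here.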

Additional observations from a re-analysis of the deposited data

Results flagged for a closer look

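In the 4 medium controls, CYP2C8 was at 34.2, 36.4, 38.6 and 63.0 RPM, and the control of NaCl stood apart from the others, with a gap of 0.846 of the group's range. Of 14 control groups checked in this way it was the only one, and chance gives about 1 in 20. The slopes of the 5 DDI chemicals differed for CYP2C8 (adjusted p = 0.0103), CYP2C19 (adjusted p = 0.0435), CYP2E1 (adjusted p = 0.0102) and CYP2A6 (adjusted p = 0.016) in edgeR, a test added after the values were seen.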

How the results depend on the processing

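Of 308 comparisons of a member count with an alternative, 297 stayed within 1.5 times. Pairs in which both counts were 0 were included among the 297. Many of the 308 were of this kind, such as rises in each chemical and the class tests. The 297 therefore says little about the called members. For 2NF the members that fell were 2 of 7 in place of 4 when concentration was taken as a share of the highest, and 2 to 3 when each of its 4 libraries was left out. The range was 0 to 4 in AFB1 (0 without the 2.5 μM library), 0 to 4 in COL (0 without the 0.3 μM library) and 0 to 3 in MMS (0 without the water control). The members higher in DMSO than in medium were 1 to 2 when each control was left out. Each of the 39 libraries was left out in turn, and the effect was read for the chemicals of its own control set. CYP2A6 in MMS missed the threshold without any 1 of its 4 libraries. It also missed it in edgeR with library totals alone (adjusted p = 0.0518) and in another edgeR setting (adjusted p = 0.0654). Of the 1017 tested values compared, 90 changed sign, and none of these was called in either fit. The log2 ratios below the control limit numbered 55 of 210 and 55 to 57 under another pseudocount, scaling or control mean. No paired analysis was possible because each treated condition has 1 library and the numbers of the controls only name them, while the match of a library to its control set was part of the trend and class fits. CYP2D6, with 1 to 26 counts, is limited by depth. The list counts and slope tests without MMS at 100 μM, at 200 μM or both were chosen after seeing the data.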
